A study of Mus musculus with 4 samples.

Results

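The 50 genes described here encode the machinery that segregates chromosomes and divides the cell. They are the centromere and kinetochore, the spindle checkpoint, the chromosomal passenger complex, spindle assembly factors, the proteins of anaphase onset, the cytokinesis apparatus, condensin I with other chromosome proteins, and regulators of entry into mitosis. They were listed by name and not by their values, though with earlier results of these data known. Each was looked up by symbol in a table of 52125 gene entries. All 50 were found, 49 under their own symbol and Sgo1 under its older symbol Sgol1. The samples were the corpus (the main body of the stomach, where acid is made) of C57BL/6 wild type mice aged 6 to 8 weeks. The HDT group (n = 2) received HDT in 1 intraperitoneal dose of 5 mg per 20 g of body weight, and the corpus was taken after 48 hr. The control group (n = 2) is called vehicle in the sample titles and untreated in the protocol text, so whether these mice were injected is not settled. Each library held the RNA of 1 mouse. The labels do not spell out HDT, which in studies of stomach injury commonly stands for high-dose tamoxifen.

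As background, a kinetochore is built on each centromere when a cell enters mitosis and ties the chromosome to spindle microtubules. While any kinetochore is unattached, the spindle checkpoint holds back Cdc20, the activator of the anaphase-promoting complex. Once the checkpoint is silenced, that complex marks securin for destruction, separase is freed to cut cohesin, and sister chromatids part before the cytokinesis apparatus cleaves the cell. In the resting corpus, division is mostly confined to progenitors in the isthmus of the gland, while the acid-secreting parietal cells and enzyme-secreting chief cells rarely divide. Many of these genes are transcribed in G2 and M phase under MuvB complexes with B-Myb and FoxM1, so their RNA is widely read as a sign of cycling cells.

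At 48 hr, 49 of the 50 genes rose in the HDT corpus and 1, the securin gene Pttg1, fell, by limma with Benjamini-Hochberg adjustment over 18285 tested genes and an adjusted p threshold of 0.05. Over all tested genes, 18.4% were called higher and 19.3% lower, 37.7% in either direction. The members' median log2 fold change was 1.78 with quartiles of 1.59 and 1.94, against -0.001 over all tested genes. The level of a gene is given in CPM, the usual depth-scaled read count, after correcting each library by its TMM factor (a trimmed mean of gene ratios between libraries). The CPM of the 50 genes summed to 569 and 613 in vehicle replicates 1 and 2, and to 2002 and 1680 in HDT replicates 1 and 2, a 3.11-fold difference of the means. Both HDT libraries therefore stood above both vehicle libraries, as they did for each of the 49 genes taken singly, while 35.3% of all tested genes had HDT libraries entirely above. Of the 50 genes, 47 were called higher with a log2 fold change of at least 1, as were 4.07% of all tested genes. In whole tissue, more dividing cells and more of these RNAs per cell cannot be told apart.

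**Figure D1:**
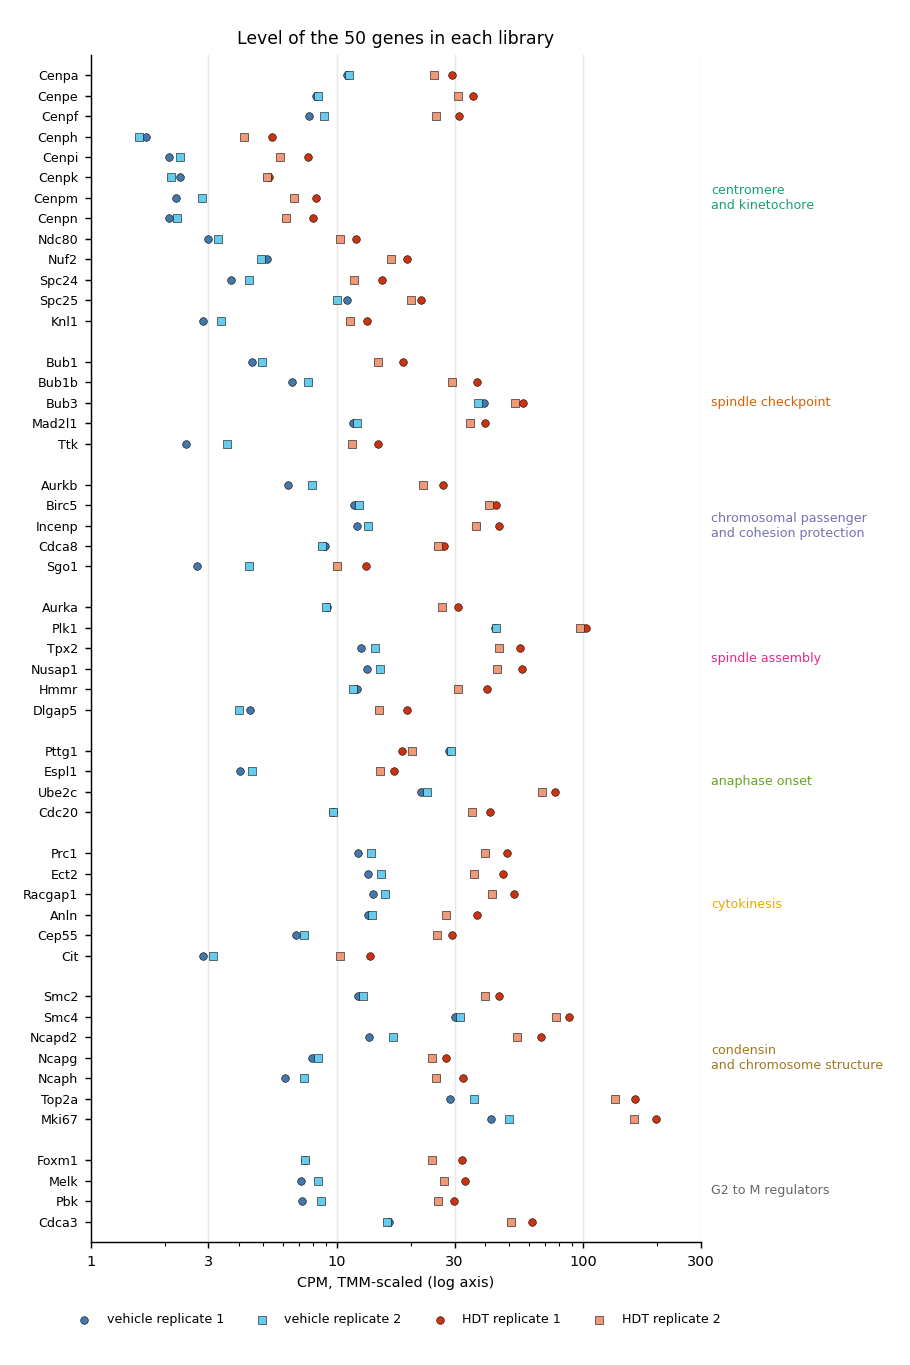
Level of each of the 50 genes in each of the 4 libraries, as TMM-scaled CPM on a log axis, ordered by function; each marker is 1 mouse. The 2 HDT markers lie to the right of the 2 vehicle markers for every gene but Pttg1, where they lie to the left.

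The RNA levels of some cell type markers also moved. In whole tissue, a change in cell makeup and a change in marker RNA per cell cannot be told apart. Markers of parietal cells summed to 11718 and 12839 CPM in the vehicle libraries and to 1755 and 1427 CPM in the HDT libraries, with 5 of 5 called lower. Chief cell markers went from 141924 and 174340 CPM to 40274 and 29602 CPM, with 3 of 4 called lower. Nearly all of that sum was Pgc, at 139863 and 171650 CPM in vehicle and 39660 and 29177 CPM in HDT. Mucous neck and pit markers went from 75822 to 77654 CPM to 39443 to 48928 CPM, with 5 of 5 called lower. General epithelial markers, at 5842 to 6039 CPM in vehicle and 5892 to 6841 CPM in HDT, included 1 called higher of 5. Fibroblast markers stood at 799 to 820 CPM in vehicle and 1451 to 1622 CPM in HDT, with 4 of 5 called higher. Macrophage and monocyte markers stood at 143 to 154 CPM and 278 to 347 CPM, with 4 of 7 called higher and 1 lower. Much of that rise was Lyz2, from 60.9 and 69.0 CPM to 209 and 146 CPM. Cd68 went from 11.1 and 9.67 CPM to 37.0 and 39.2 CPM. C1qa and Csf1r were also called higher, Ly6c2 was called lower, and Adgre1 and Ccr2 had no call. T cell markers summed to 4.72 and 4.18 CPM in vehicle and 9.62 and 7.91 CPM in HDT, with 1 of the 2 tested, Cd4, called higher, while Cd3d, Cd3e and Cd3g were at no more than 0.23 CPM in any library. Squamous forestomach markers summed to at most 3.41 CPM in any library, with Ivl called higher. Endothelial markers stood at 100 to 120 CPM in vehicle and 100 to 114 CPM in HDT, with 2 of 5, Kdr and Emcn, called lower. Smooth muscle markers stood at 1851 to 2603 CPM in vehicle and 1540 to 2186 CPM in HDT, with 0 of 5 called higher or lower. The sums of neutrophil markers and of B and plasma cell markers also overlapped between the groups. No marker was at 0 in all 4 libraries. Several of these calls depend on the scaling. On the values as deposited, without TMM, Kcne2, Muc5ac, Gkn1, Gkn2, Kdr and Emcn were not called lower (limma adjusted p from 0.0801 to 0.376). Markers with no call with TMM that were called higher there included Cdh1, Krt8, Krt18, Krt19, Dcn, Adgre1, Ccr2, Pecam1, Cdh5 and Tek. Over all 18285 tested genes, 11483 were called higher there. Which cells carried the mitotic RNAs, and the part of these shifts in their rise, was not tested. Pancreas markers summed to 102 CPM in vehicle replicate 2 against at most 3.41 CPM elsewhere. That vehicle library stood apart in this respect. Without it, 49 members were still called higher and 1 lower, with a median log2 fold change of 1.85.

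The size of every fold depends on how the libraries are scaled. On the values as the authors deposited them, without TMM, the median over all tested genes was 0.526 instead of -0.001, the share of calls that were higher was 92% instead of 48.9%, and the members' median was 2.31. The same 49 genes were called higher on either scale, and the lone fall lost its call. Of 18285 tested genes, 11483 were called higher on the values as deposited, against 3369 with TMM. Levels relative to the mean of the 50 genes in the same library do not depend on scaling and are given below as relative levels. Because they are centred on the mean of the set, their shifts sum to 0 over the 50 genes, so the few large negative shifts push the others up. They show unequal change only, and the number of genes above or below 0 is not a result.

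**Figure D2:**
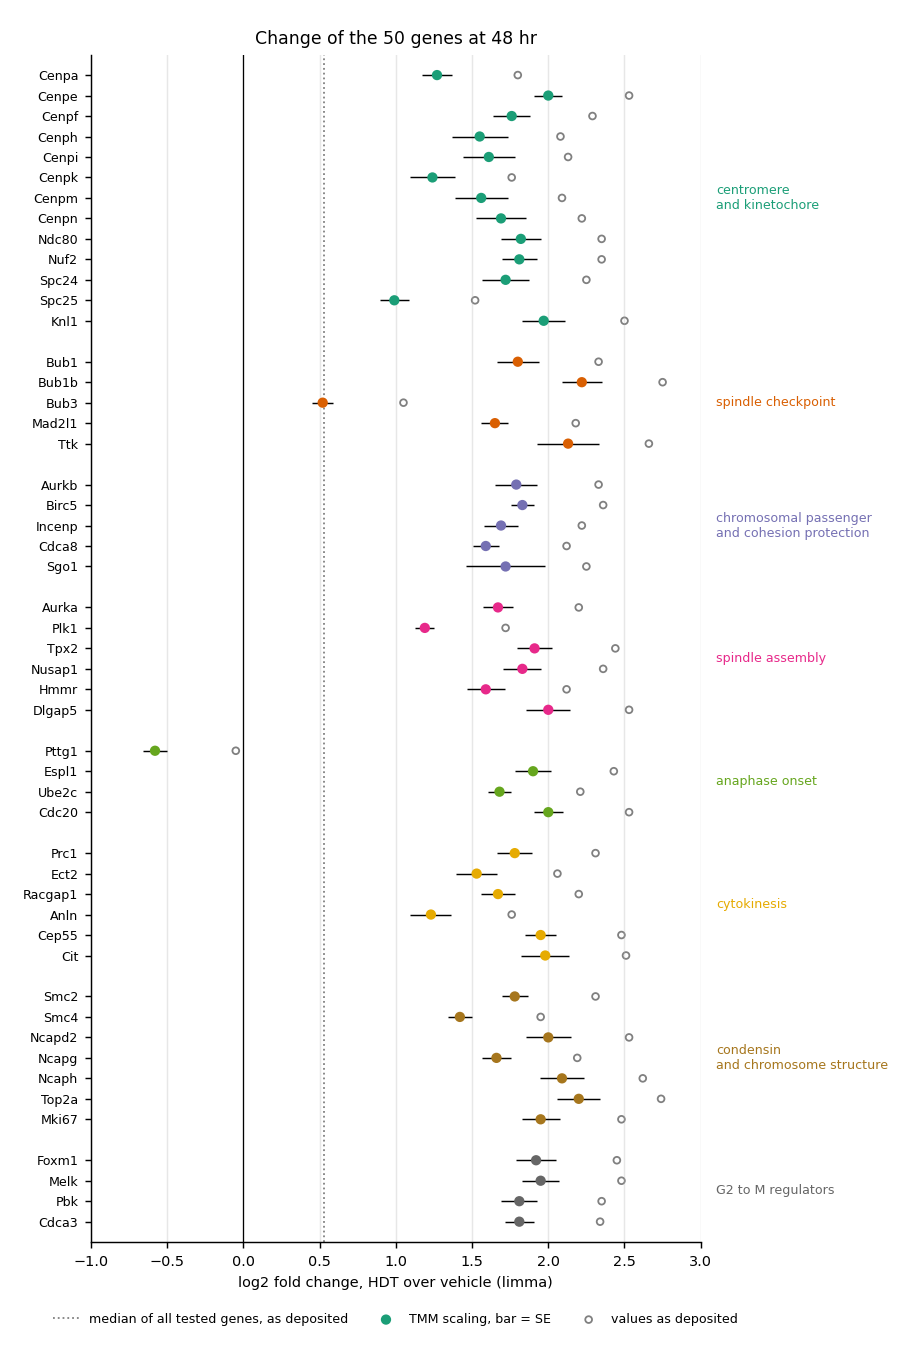
The log2 fold change of HDT over vehicle for each of the 50 genes by limma, with bars of 1 SE on the TMM scale, and open circles for the values as deposited. All filled points but Pttg1 lie above 0, and the dotted line marks the median of all tested genes on the deposited scale, 0.526.

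The start sites of these genes were examined for the letters that the G2 and M phase program is known to use. The cell cycle genes homology region (CHR, TTTGAA), which MuvB complexes bind, its variant TTCGAA, and the CCAAT box, which NF-Y binds, were searched on both strands from 250 bases before to 50 after each RefSeq start (GRCm38.p6). RefSeq windows were matched by symbol for 42 of the 50 genes, and the others were Aurkb, Dlgap5, Foxm1, Incenp, Pbk, Smc4, Spc24 and Tpx2. A CHR or its variant was present for 30 of the 42 genes, 71.4%, against 21.7% of 27025 genes with a window. A CCAAT box was present for 30 genes, 71.4%, against 41.1%, and 26 genes, 61.9%, had both against 8.61% of all. The E2F letters TTTCCCGC or TTTGGCGC were in 3 windows, 7.14% of the members, against 1.80%. TTCGAA reads the same on both strands, and no searched motif contains another. A match is a description of letters and not of a binding site. The 6 stretches below are examples chosen after their values and letters were seen. They are of Bub1b and Top2a, the largest rises, of Ncaph, a strong riser with no match, of Spc25, among the smallest rises, and of Cdc20 and Mki67, which have both elements. Each ends just before the RefSeq start, or before the GENCODE gene where that begins earlier, as for Cdc20, with CHR, variant and CCAAT letters of either strand in capitals (ATTGG and TTCAAA are CCAAT and TTTGAA on the other strand).
Bub1b, chr2:118598061-118598210, plus strand: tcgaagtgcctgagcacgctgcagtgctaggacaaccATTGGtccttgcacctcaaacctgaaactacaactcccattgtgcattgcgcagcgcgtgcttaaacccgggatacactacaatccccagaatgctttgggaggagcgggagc
Top2a, chr11:99024190-99024339, minus strand: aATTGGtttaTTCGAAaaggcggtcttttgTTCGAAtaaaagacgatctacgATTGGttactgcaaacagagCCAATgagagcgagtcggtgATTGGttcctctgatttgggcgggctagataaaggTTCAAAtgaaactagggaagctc
Ncaph, chr2:127133955-127134104, minus strand: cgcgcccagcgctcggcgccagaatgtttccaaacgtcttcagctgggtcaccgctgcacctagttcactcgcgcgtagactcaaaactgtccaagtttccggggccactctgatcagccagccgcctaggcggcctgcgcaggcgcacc
Spc25, chr2:69206214-69206363, minus strand: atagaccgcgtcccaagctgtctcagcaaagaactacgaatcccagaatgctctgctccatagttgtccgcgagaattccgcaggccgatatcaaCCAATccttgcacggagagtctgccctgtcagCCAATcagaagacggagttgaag
Cdc20, chr4:118437353-118437493, minus strand: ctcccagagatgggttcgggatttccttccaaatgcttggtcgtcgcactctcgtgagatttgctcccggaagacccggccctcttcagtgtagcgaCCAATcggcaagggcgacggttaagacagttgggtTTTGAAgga
Mki67, chr7:135716380-135716529, minus strand: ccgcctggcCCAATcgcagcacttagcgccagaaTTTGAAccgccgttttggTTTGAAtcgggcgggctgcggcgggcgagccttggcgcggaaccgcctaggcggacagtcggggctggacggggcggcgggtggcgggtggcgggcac

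The Top2a stretch holds 2 copies of the variant, 1 CHR and 4 CCAAT boxes. The Mki67 stretch holds 2 CHR elements and 1 CCAAT box, and the Cdc20 stretch 1 of each. The Spc25 stretch holds 2 CCAAT boxes, with its CHR after the start, and the Ncaph stretch holds none of these letters. Bub1b shows a CCAAT box alone in the part printed, while its variant lies further upstream and its CHR after the start. The 30 genes with a CHR or variant had a median log2 fold change of 1.74 (0.52 to 2.22), and the 12 without had a median of 1.82 (-0.58 to 2.09). None of the 4 motifs was found for Birc5, Cit, Mad2l1, Melk, Ncaph, Nuf2, Nusap1 and Pttg1, a group whose median was 1.83 and which holds both strong risers and the 1 gene that fell. For Pttg1 and Cit, the only window lay wholly inside the GENCODE gene. Bases upstream of the GENCODE start were therefore not searched for these genes, so whether Pttg1 has such letters there is not known. The windows of Cdca3, Cdca8 and Cenpm also lay wholly inside the gene. For Mad2l1 the window ended at base 66535270, before the GENCODE start at base 66535390. The bases next to that start were therefore not searched.

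**Figure D3:**
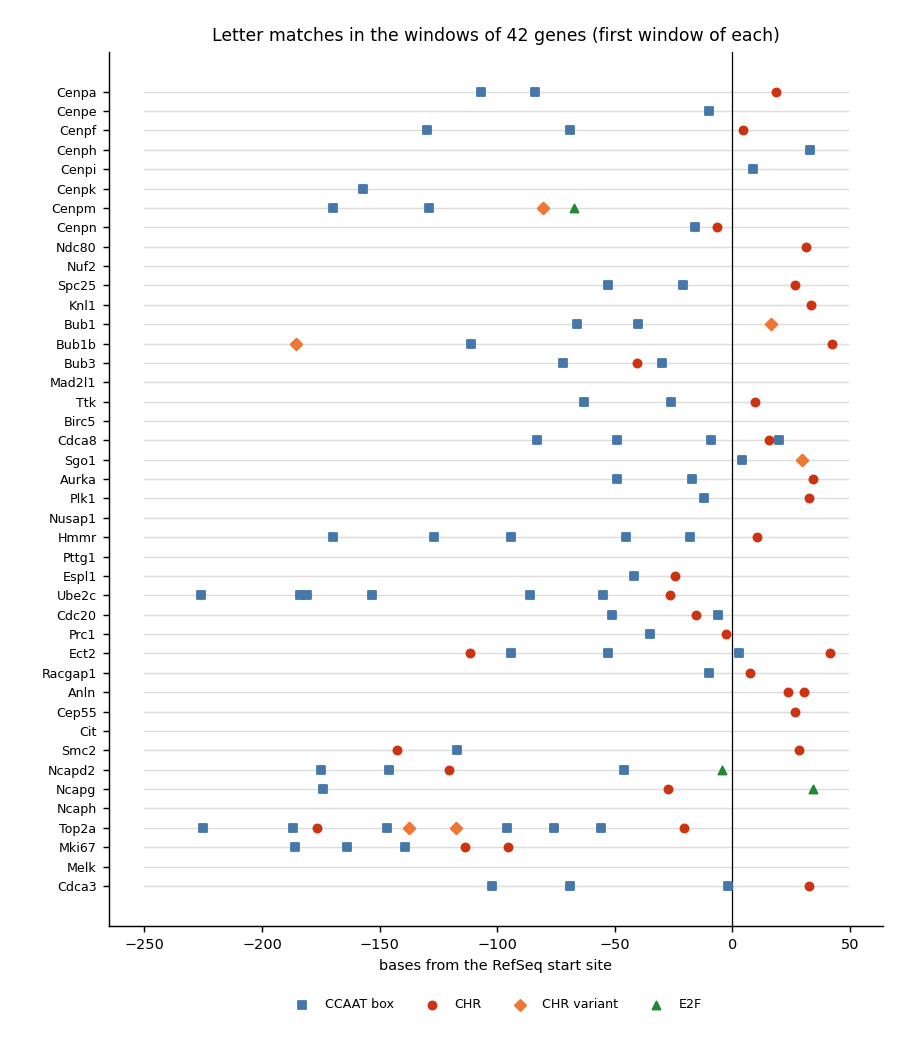
Positions of the letters of 4 motifs around the RefSeq start (0, in bases) for the 42 genes with a window, the first window of each gene. Squares are CCAAT boxes, circles and diamonds the CHR and its variant, and triangles E2F letters; 8 genes have no mark.

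All 13 centromere and kinetochore genes rose, with a median log2 fold change of 1.69 and a range of 0.99 to 2.0. Cenpe, the kinesin that carries chromosomes to the spindle equator, rose most, from 8.21 and 8.39 CPM in vehicle replicates 1 and 2 to 35.5 and 31.1 CPM in HDT replicates 1 and 2 (log2 fold change 2.0, SE 0.0916, limma adjusted p = 5.28e-06). Knl1, the scaffold on which checkpoint proteins load, went from 2.84 and 3.37 CPM to 13.2 and 11.3 CPM (log2 fold change 1.97, SE 0.142, limma adjusted p = 3.83e-05). In both genes the HDT libraries exceeded the higher vehicle library by far more than the replicates differed. Cenpa, the histone H3 variant that marks the centromere, rose less. It stood at 11 and 11.2 CPM in vehicle and 29.3 and 24.7 CPM in HDT (log2 fold change 1.27, SE 0.0982, limma adjusted p = 5.42e-05). Against the mean of the set its relative level fell by 0.41 on the log2 scale, with libraries apart.

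The inner kinetochore proteins of the constitutive centromere network had few reads. Cenph, Cenpi, Cenpk, Cenpm and Cenpn lay between 1.57 and 2.82 CPM in vehicle and between 4.20 and 8.17 CPM in HDT, with log2 fold changes of 1.24 (Cenpk) to 1.69 (Cenpn). The lowest count of any member in any library was 54 reads, for Cenph, so counting error is a larger part of the spread here. Cenpf, a large protein of the kinetochore corona, had a log2 fold change of 1.76.

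Within the Ndc80 complex, the rod that grips microtubules, the members rose by unequal amounts. Ndc80 went from 2.98 and 3.28 CPM to 11.9 and 10.3 CPM (log2 fold change 1.82), and Nuf2, its partner in the microtubule-binding head, from 5.17 and 4.91 CPM to 19.2 and 16.5 CPM (log2 fold change 1.81). Spc24, of the inner end, went from 3.72 and 4.38 CPM to 15.2 and 11.7 CPM (log2 fold change 1.72). Spc25, its binding partner, was at 11 and 10 CPM in vehicle and 21.9 and 19.9 CPM in HDT, so the groups stood apart but by less (log2 fold change 0.99, SE 0.0940, limma adjusted p = 0.000145). Per kilobase of exon, the ratio of Spc25 to Ndc80 was 7.49 and 6.24 in the vehicle libraries and 3.76 and 3.92 in the HDT libraries. The ratio of Ndc80 to Nuf2 was 0.56 and 0.65 in vehicle and 0.61 in both HDT libraries, so for that pair the groups overlapped. Spc25 (chromosome 2, 69193895 to 69206194, minus strand, GRCm38) was the member with the third smallest fold change.

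All 5 spindle checkpoint genes rose, and they held both the largest and the smallest rise of the set. Bub1b (chromosome 2, 118598211 to 118641591, plus strand) encodes BubR1, the part of the mitotic checkpoint complex that blocks Cdc20. It stood at 6.53 and 7.61 CPM in vehicle and 37.0 and 29.2 CPM in HDT, a 4.68-fold difference of the means (log2 fold change 2.22, SE 0.132, limma adjusted p = 2.33e-05). Of all tested genes, 0.487% had a fold change at least as large. Ttk, the Mps1 kinase that starts the checkpoint signal, went from 2.44 and 3.57 CPM to 14.6 and 11.5 CPM (log2 fold change 2.13, SE 0.206, limma adjusted p = 0.000321). The vehicle libraries differed most for Ttk and Sgo1 among the 50, and the HDT libraries still lay well above. Bub1, the kinase recruited to Knl1, and Mad2l1, which encodes Mad2, had log2 fold changes of 1.80 and 1.65.

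Bub3 (chromosome 7, 131560222 to 131571895, plus strand) encodes the adaptor that brings Bub1 and BubR1 to Knl1. Its level was 39.4 and 37.3 CPM in vehicle and 56.9 and 52.8 CPM in HDT. The HDT libraries were above, by a factor of 1.43 (log2 fold change 0.52, SE 0.0696, limma adjusted p = 0.000811). Per kilobase of exon, the ratio of Bub1b to Bub3 went from 0.27 and 0.33 in the vehicle libraries to 1.07 and 0.91 in the HDT libraries. Bub1 to Bub3 went from 0.18 and 0.21 to 0.53 and 0.45. Per kilobase of merged exon, Bub3 RNA was above that of either partner in vehicle corpus, and Bub1b RNA stood near it in HDT corpus. Such comparisons between genes depend on the exon length used, as isoform use is unknown. The change in each ratio does not depend on that length. The relative level of Bub3 fell by 1.16 on the log2 scale.

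The 4 genes of the chromosomal passenger complex and Sgo1 rose by similar amounts, with log2 fold changes of 1.59 to 1.83. The kinase Aurkb, the scaffold Incenp, and Birc5 (survivin) and Cdca8 (borealin), which target the complex to the centromere, had log2 fold changes of 1.79, 1.69, 1.83 and 1.59. Birc5 stood at 11.7 and 12.3 CPM in vehicle and 44.3 and 41.3 CPM in HDT (SE 0.0761, limma adjusted p = 3.4e-06). The ratio per kilobase of Birc5 to Incenp was 1.25 and 1.17 in vehicle and 1.24 and 1.43 in HDT, and that of Cdca8 to Incenp 0.62 and 0.54 against 0.50 and 0.58. For both ratios the groups overlapped. The ratio of Aurkb to Incenp was 0.78 and 0.87 in vehicle and 0.87 and 0.89 in HDT, apart only before rounding. Sgo1, the shugoshin that shields centromeric cohesin, went from 2.7 and 4.38 CPM to 13.1 and 9.95 CPM (log2 fold change 1.72, SE 0.257, limma adjusted p = 0.0036), the widest error of the 50.

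All 6 spindle assembly genes rose, with a median log2 fold change of 1.75 (1.19 to 2.0). Plk1, the polo-like kinase of centrosome maturation and mitotic progress, was the most abundant member per kilobase, at 20.0 CPM per kb in vehicle and 45.5 in HDT. Its level was 43.9 and 44.0 CPM in vehicle and 103 and 97 CPM in HDT (log2 fold change 1.19, SE 0.0626, limma adjusted p = 9.35e-06), and its relative level fell by 0.49. Aurka, the centrosome kinase, had a log2 fold change of 1.67, and the ratio per kilobase of Plk1 to Aurka went from 5.57 and 5.64 to 3.83 and 4.20. Of Plk1's exon bases, 7.09% overlap the opposite-strand gene Gm44985, listed at 24.6 to 24.9 CPM in vehicle and 40.0 to 44.2 CPM in HDT, and the strand setting of the counting is not given in the sources used here. Dlgap5, which stabilises kinetochore fibres, and Tpx2, the activator of Aurora A, had log2 fold changes of 2.0 and 1.91. Nusap1 and Hmmr, microtubule-binding spindle proteins, had 1.83 and 1.59.

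At anaphase onset, 3 genes rose and 1 fell. Cdc20 went from 9.60 and 9.61 CPM to 41.8 and 35.3 CPM (log2 fold change 2.0, SE 0.0958, limma adjusted p = 6.27e-06). Ube2c, the ubiquitin-conjugating enzyme that feeds the anaphase-promoting complex, went from 22 and 23.2 CPM to 76.8 and 68.0 CPM (log2 fold change 1.68, SE 0.0783, limma adjusted p = 5.64e-06). Espl1, the protease separase (chromosome 15, 102296266 to 102324357, plus strand), went from 4.03 and 4.50 CPM to 17.1 and 15.0 CPM (log2 fold change 1.90, SE 0.119, limma adjusted p = 1.9e-05). For all 3, both HDT libraries lay far above both vehicle libraries. Of Ube2c's exon bases, 22.77% overlap the opposite-strand gene Tnnc2, which was at no more than 0.11 CPM in any library. Of Cdc20's stretches of 50 bases, 10.38% also occur in other genes such as Gm7856, which was at no more than 0.04 CPM. Elovl1, on the opposite strand, overlaps 2.84% of Cdc20's exon bases. It was listed at 132 and 137 CPM in vehicle and 95.6 and 97.6 CPM in HDT.

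Pttg1 (chromosome 11, 43420250 to 43426251, minus strand) encodes securin, the inhibitor and chaperone of separase. It stood at 28.5 and 28.9 CPM in vehicle and 18.3 and 20.2 CPM in HDT, 0.67 of the vehicle mean (log2 fold change -0.58, SE 0.0784, limma adjusted p = 0.000842). The HDT libraries were below, and HDT replicate 1 was the lower of the 2, unlike in every other member. On the values as deposited the change was -0.05 (limma adjusted p = 0.629), so the fall in level depends on the scaling. Its fall against the rest of the set does not, at -2.26 in relative level. Per kilobase of exon, the ratio of Espl1 to Pttg1 was 0.03 and 0.04 in the vehicle libraries and 0.21 and 0.17 in the HDT libraries. That is a 5.61-fold difference of the means taken on the log2 scale. The ratio of Cdc20 to Pttg1 went from 0.36 in both vehicle libraries to 2.45 and 1.87. In vehicle corpus Pttg1 was the second most abundant of the 50 per kilobase, at 14.4 CPM per kb, and in HDT corpus the fifteenth, at 9.63.

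**Figure D4:**
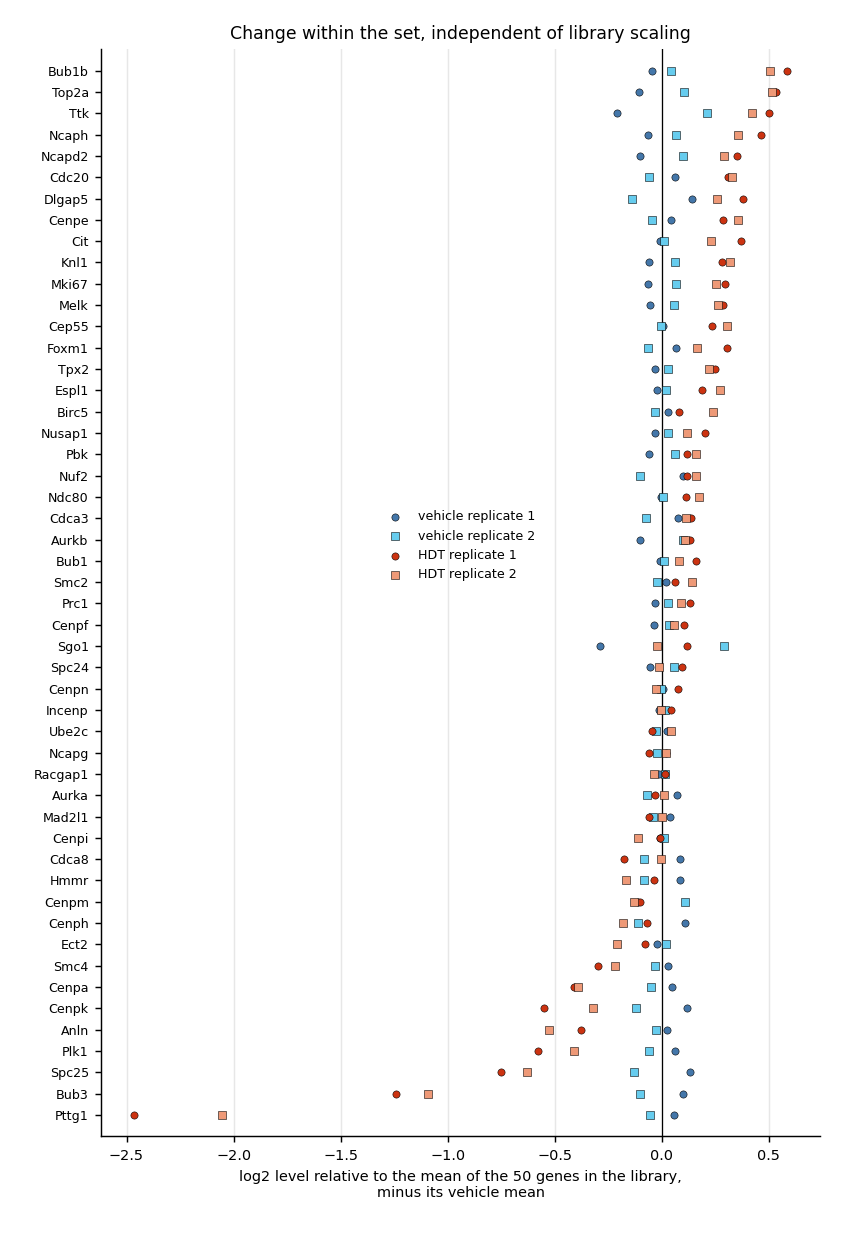
Log2 level of each gene relative to the mean of the 50 genes in the same library, with its own vehicle mean set to 0. Each marker is 1 mouse. Pttg1, Bub3, Spc25 and Plk1 fall furthest below 0 in HDT, at -2.26, -1.16, -0.69 and -0.49, and Bub1b and Top2a lie furthest above, at 0.54 and 0.53.

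All 6 cytokinesis genes rose, with a median log2 fold change of 1.73 (1.23 to 1.98). Cit, the citron kinase of the midbody, rose most but was the least abundant member per kilobase, at 2.84 and 3.14 CPM in vehicle and 13.6 and 10.3 CPM in HDT (log2 fold change 1.98, SE 0.157, limma adjusted p = 6.38e-05). Cep55, which recruits the abscission machinery, went from 6.79 and 7.35 CPM to 29.2 and 25.5 CPM (log2 fold change 1.95). Prc1, the bundler of the central spindle, Racgap1, the centralspindlin subunit, and Ect2, the exchange factor that activates RhoA, had log2 fold changes of 1.78, 1.67 and 1.53. Anln, the actin-binding scaffold of the cleavage furrow, rose less, from 13.3 and 13.9 CPM to 36.9 and 27.7 CPM (log2 fold change 1.23, SE 0.134, limma adjusted p = 0.000578). The ratio per kilobase of Anln to Racgap1 went from 0.74 and 0.70 to 0.55 and 0.51. Of Prc1's exon bases, 11.08% overlap the opposite-strand gene Rccd1, at 6.70 and 6.88 CPM in vehicle and 23.1 and 20.1 CPM in HDT.

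All 7 genes of condensin and chromosome structure rose, with the highest group median, 1.95 (1.42 to 2.20). Top2a, the topoisomerase that untangles sister chromatids (chromosome 11, 98992943 to 99024189, minus strand), went from 28.7 and 36.0 CPM to 163 and 134 CPM, 4.6-fold (log2 fold change 2.20, SE 0.140, limma adjusted p = 0.000163). Mki67, the coat protein of mitotic chromosomes, went from 42 and 50.1 CPM to 197 and 160 CPM (log2 fold change 1.95, SE 0.125, limma adjusted p = 0.000113). Both vehicle libraries lay far below, and in both genes vehicle replicate 2 was above vehicle replicate 1. Of the condensin I subunits, the kleisin Ncaph and the HEAT-repeat protein Ncapd2 had log2 fold changes of 2.09 and 2.0, against 1.66 for Ncapg. The ATPases Smc2 and Smc4, which condensin II also uses, differed. Smc4 went from 30.1 and 31.5 CPM to 87.8 and 77.4 CPM (log2 fold change 1.42), and the ratio per kilobase of Smc2 to Smc4 from 0.38 and 0.39 to 0.49 in both HDT libraries. Of Ncapg's exon bases, 13.36% overlap the opposite-strand gene Lcorl, at 56.6 to 57.1 CPM in vehicle and 55.3 to 65.3 CPM in HDT.

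The 4 regulators of entry into mitosis moved within a narrow range. Foxm1, a transcription factor of G2 and M phase genes, went from 7.38 and 7.37 CPM to 32.1 and 24.2 CPM (log2 fold change 1.92, SE 0.133, limma adjusted p = 4.59e-05). The kinases Melk and Pbk and the F-box protein gene Cdca3 had log2 fold changes of 1.95, 1.81 and 1.81. Over the 8 groups the medians ran from 1.69 to 1.95, and the differences between groups were not tested.

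The levels of the 50 genes differed between the HDT mice in the same direction for nearly every gene. HDT replicate 1 was above HDT replicate 2 in 49 of the 50 genes, with a median ratio of 1.22, against 50.4% of all tested genes. Vehicle replicate 2 was above vehicle replicate 1 in 39 of the 50, with a median ratio of 1.09, against 53.7% of all tested genes. Within a group the genes thus shifted together from mouse to mouse, and they are not independent measurements of the effect. Between groups the shift was larger than either, with the lowest HDT sum of the 50, 1680 CPM, above the highest vehicle sum, 613 CPM.

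Partner genes of the same complexes, from lists chosen by function, were less uniform than the 50. Of 115 such genes, 83 rose, 5 fell and 27 did not pass the limma test, with a median log2 fold change of 0.53. Among 27 other kinetochore and centromere genes, 21 rose and 1 fell, with a median of 0.94. Dsn1, a subunit of the Mis12 complex that links Ndc80 to the centromere, had the largest rise, from 1.36 and 1.65 CPM to 7.70 and 5.79 CPM (log2 fold change 2.14, SE 0.193, limma adjusted p = 0.000116). Its complex partners Nsl1, Pmf1 and Mis12, named after their values were seen, had 1.52, 1.02 and 0.48. Cenpb, which binds a centromeric DNA box, was called lower, at 192 and 193 CPM in vehicle and 159 and 164 CPM in HDT (log2 fold change -0.25, limma adjusted p = 0.0121). That call was lost without either vehicle library (limma adjusted p = 0.0979 without replicate 1 and 0.106 without replicate 2), and on the values as deposited Cenpb had a log2 fold change of 0.28.

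Zwint, which tethers the Rod-Zw10-Zwilch complex to Knl1, was at 28.3 and 27.6 CPM in vehicle and 28.3 and 28.8 CPM in HDT (log2 fold change 0.03, limma adjusted p = 0.744). On the values as deposited it had 0.56 and was called higher. Kntc1 (Rod) and Zwilch, of the complex it tethers, rose with log2 fold changes of 1.86 and 1.83, and Zw10 with 0.43. These 4 genes were also named after their values were seen. All 4 libraries of Zwint thus lay between 27.6 and 28.8 CPM, while the HDT libraries of the other 3 genes stood clearly above the vehicle libraries. Of 8 other checkpoint and cohesion protection genes 6 rose, led by Trip13, the ATPase that remodels Mad2 (log2 fold change 1.68).

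Cohesin and the anaphase-promoting complex, which most cells also use outside mitosis, had smaller medians. Cohesin and its regulators had 9 of 13 called higher with a median of 0.35, led by Cdca5 (sororin), at 1.98, while the core subunits Smc1a, Smc3 and Rad21 had 0.70, 0.60 and 0.34. The anaphase-promoting complex had 10 of 17 called higher and 2 lower, with a median of 0.26. Its inhibitor Fbxo5 rose most, from 4.23 and 4.79 CPM to 12.4 and 11.4 CPM (log2 fold change 1.40). Its small subunit Anapc13 fell, from 37.9 and 37.5 CPM to 20.8 and 19.9 CPM (log2 fold change -0.89, SE 0.0689, limma adjusted p = 5.6e-05), and Anapc16 was the other called lower, at -0.58. Anapc16 lost its call on the values as deposited (log2 fold change -0.04, limma adjusted p = 0.63).

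Of the 3 subunits that only condensin II has, 2 rose. Ncapg2 had the larger rise (log2 fold change 1.15, SE 0.110, limma adjusted p = 0.000184), and Ncapd3 had 0.44 (limma adjusted p = 0.0439), a call lost without vehicle replicate 1 (limma adjusted p = 0.174) and without HDT replicate 1 (limma adjusted p = 0.154). Ncaph2 stood at 65.5 and 64.2 CPM in vehicle and 66 and 61.1 CPM in HDT (log2 fold change -0.03, limma adjusted p = 0.753), so the groups overlapped, and on the values as deposited it had 0.50. The condensin I kleisin Ncaph had 2.09 on the same scale as the -0.03 of its condensin II counterpart. The difference between the complexes was not tested.

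The other cytokinesis genes had 10 of 20 called higher and 2 lower, with a median of 0.16. Iqgap3, the scaffold protein in the title of the series, rose most, from 5.57 and 7.06 CPM to 31.1 and 24.2 CPM (log2 fold change 2.13, SE 0.159, limma adjusted p = 0.000114). Kif23 and Kif20a, the kinesins of the central spindle, rose with 1.84 and 1.58. The septin Sept9 fell, from 125 and 135 CPM to 87.5 and 74.7 CPM (log2 fold change -0.69, SE 0.0865, limma adjusted p = 0.000632), and had -0.15 on the values as deposited (limma adjusted p = 0.148). Tsg101, an abscission factor, was called lower at -0.21, but was called higher at 0.32 on the values as deposited. Its call as lower was lost without any 1 of the 4 libraries (limma adjusted p from 0.0559 to 0.133). All 9 mitotic kinesins rose, with a median of 1.85, led by Kif18b at 2.17. Replication licensing and fork genes had 16 of 18 called higher with a median of 1.33, led by Mcm5 at 1.80.

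**Figure D5:**
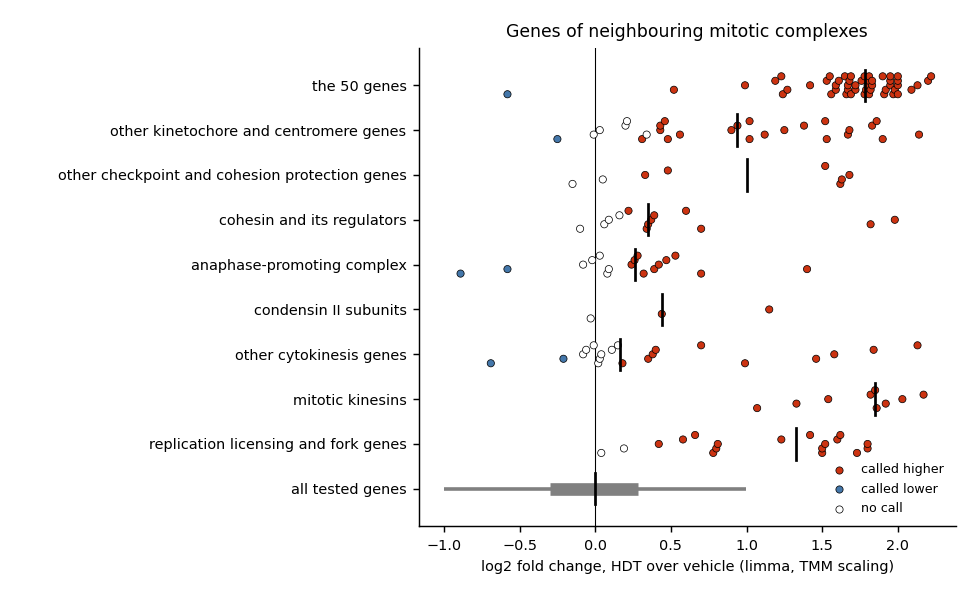
Log2 fold change of HDT over vehicle (limma, TMM scaling) for the 50 genes and for 8 lists of partner genes; each point is 1 gene, vertical bars are medians, and for all tested genes the thick and thin grey bars span the quartiles and the 5th to 95th percentiles. The median is 1.78 for the 50 genes, 0.94 for other kinetochore genes, 0.26 for the anaphase-promoting complex and 1.85 for the mitotic kinesins.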

How the data were processed

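RNA-seq libraries of 4 mice, 2 vehicle and 2 HDT, were analysed. The tools named in the submitters' processing notes are edgeR, featureCounts, Subread 2.0.0 and STAR 2.7.1a, and the builds GRCm38 and mm10. For annotation, strand setting and normalization the sources used here give nothing. The deposited signal values are normalized gene counts: each is a whole number of reads times a factor constant within a library (1.1381 and 1.12 in vehicle replicates 1 and 2, 1.1192 and 1.1128 in HDT replicates 1 and 2), and division by that factor returned whole reads for 100% of values, within 0.01. Recovered depth was 41536686 to 42674985 reads.

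Genes were kept by filterByExpr (minimum count 10) in edgeR 4.0.16, and all 50 members passed. Deposited values were scaled by TMM (factors 0.848, 0.818, 1.219 and 1.183) and tested as log2(value + 1), where 1 equals 0.89 reads, with limma 3.58.1 (trend, robust, R 4.3.3), two-sided, group as the only term. Fold changes are on that log2(value + pseudocount) scale, which understates low genes. With 2 mice per group, much of each spread came from other genes (median prior df 5.87). CPM is recovered reads over the TMM-scaled library size. Levels per kilobase use merged exons of GENCODE M21 (GRCm38), with isoform use unknown. The scripts were tested on simulated data. Same-numbered libraries did not deviate together (correlation -0.14). The alternatives were no TMM, DESeq2 size factors, upper-quartile scaling, pseudocounts of 0.25 and 4, no filter, a filter of 1 CPM, edgeR's quasi-likelihood and DESeq2 1.42.0 tests on recovered reads, a replicate block, and leaving out each library. Any member may be named, as may the largest riser and faller called in each partner list and Iqgap3. Other partner genes named were chosen after their values were seen. The members, lists and tests were chosen with earlier results of these data known.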

Additional observations from a re-analysis of the deposited data

How the results depend on the processing

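All 49 rises of the 50 genes were called in each of the 14 alternatives. Of 700 gene values, 699 kept direction and call. The exception was Pttg1 on the values as deposited, -0.05 (limma adjusted p = 0.629), where the count of members called lower was 0. Without TMM the calls over all genes were 11483 higher and 998 lower, the members' median log2 fold change was 2.31, 19 other cytokinesis genes were called higher, 1 partner gene was called lower, and Cenpb, Ncaph2 and Tsg101 turned to 0.28, 0.50 and 0.32. Under upper-quartile scaling Ncaph2 had 0.00. The cause was not tested. Leaving out 1 library gave a members' median of 1.63 (without HDT replicate 1) to 1.93 (without HDT replicate 2), 1 to 2 condensin II subunits called higher, 3 to 4 partner genes called lower instead of 5, and -0.08 to 0.04 for Ncaph2. The lone library was then assumed to vary like the other group. The replicate numbers share only a number. With the replicate block, 1 condensin II subunit was called higher and 3 partner genes lower, the calls over all genes went from 3369 to 2359 higher and from 3520 to 2623 lower, and all 50 members kept their calls. Cenpc1 lost its call in 5 alternatives (log2 fold change 0.31). With 2 mice per group, an exact test of a single gene could not pass the threshold, so each call rests on limma's pooled spread.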
